A study of Mus musculus with 22 samples.

Results

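The genes described here are 5 membrane-anchored serine proteases (Prss8, St14, Tmprss2, Tmprss4 and Hpn), 3 inhibitors of such proteases (Spint1, Spint2 and Serpine2) and Spink8, a Kazal-type serine protease inhibitor by its family name. They were taken by symbol from the deposited expression table, where each of the 9 matched 1 of 54514 gene entries. Spink8 was selected on its TPM, which was already known to be higher with dDAVP and with GFP in these libraries, so its changes are given as a description with no test. The other 8 genes belong to the set by their known function, but the set as a whole was drawn up with earlier results of these data known.

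The epithelial sodium channel of the collecting duct, built from the subunits encoded by Scnn1a, Scnn1b and Scnn1g, carries sodium from the urine into the cell. It conducts better once proteases have cut its alpha and gamma subunits. Prostasin (Prss8), matriptase (St14) and the protease encoded by Tmprss4 are known as channel-activating proteases, and matriptase and prostasin act on each other in a cascade at the epithelial surface. The Kunitz-type inhibitors encoded by Spint1 and Spint2 restrain matriptase and prostasin, and Serpine2 encodes protease nexin-1, a serpin that blocks prostasin among others.

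All libraries were made from mpkCCD, an immortalised line from the cortical collecting duct of the mouse kidney (secondary clone 38 of mpkCCDc11, so a single clonal line). Unsorted wild-type (WT) cells without dDAVP and WT cells with dDAVP, an agonist of the vasopressin V2 receptor, gave 3 libraries each. The reporter lines, named C1, C11, C43 and C50 and each a single clone, all received dDAVP. Their cells were separated by GFP into a negative and a positive fraction, and each fraction of each clone gave 2 libraries. This makes 22 libraries in 10 groups. The series title presents GFP as a reporter of aquaporin-2 (Aqp2), the water channel of principal cells, and the reporter construct itself is not described in the sources used here. All groups had grown for 4 days in full medium and were then held in serum-free medium with 50 nM dexamethasone, a glucocorticoid, 60 nM sodium selenite and 5 µg/mL transferrin. The labels list more than 1 dose and duration of dDAVP without tying them to libraries. They do not say whether replicates were separate cultures, so p-values measure only the spread between these libraries, which may be technical.

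Levels are given as TPM, a measure of transcript abundance, which are scaled by transcript length and so can be compared between genes, but keep no sequencing depth. Libraries had 12293 to 14341 genes at a TPM of 1 or more. The number of genes above 0 split the libraries into 12 with at least 23135 and 10 with at most 20250. C50 GFP-negative replicate 1 stood apart, with 8.16% of its TPM in ribosomal-protein genes against a next highest share of 5.999%. It also had the lowest St14 and Tmprss2 of all 22, and results that rest on it are given with and without it. Of 10 principal cell markers, 8 had a mean TPM of 1 or more, among them Aqp2 (64.1 to 7254 TPM) and Avpr2 (137 to 385 TPM). Aqp3 (median 1.33, at most 4.13 TPM) and Aqp4 (median 0.85, at most 6.46 TPM) were low among these. Scnn1b (at most 0.82 TPM) and Elf5 (at most 0.31 TPM) were near 0 in every library. Of 7 intercalated cell markers, Atp6v1b1 and Car2 were present and the defining Foxi1 and Atp6v1g3 reached at most 0.10 and 0.04 TPM. Summed markers of thick ascending limb, distal convoluted tubule, endothelium and fibroblast did not pass 1.48 TPM in any library. Those of proximal tubule reached 16.1 TPM, mostly Lrp2 (0.94 to 15.9 TPM), and those of leukocytes 12.95 TPM, mostly Cd68 (2.86 to 12.4 TPM).

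The coding sequences of the proteases show what the family shares. The stretch of 30 bases around the active-site serine is given from the GENCODE vM21 transcripts (GRCm38), 5′ to 3′ on the coding strand, with the serine codon in capitals. Each encodes the serine within the same short run of glycines and proline that marks the trypsin-like family.
Prss8: gcctgccagggtgacTCTgggggcccactc
St14: tcctgccagggtgacTCTggtggccccttg
Tmprss2: tcttgccagggagacAGTggagggccgctg
Tmprss4: acctgccagggtgacAGTggtgggcctttg
Hpn: gcgtgccagggcgacAGTggaggccccttt

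Any 2 of these stretches were identical at 21 to 25 of their 30 bases. The serine is codon 238 of 339 in Prss8, 805 of 855 in St14, 439 of 490 in Tmprss2, 385 of 435 in Tmprss4 and 352 of 416 in Hpn. St14 (chr9:31089402-31131853) and Tmprss4 (chr9:45172726-45204092) lie on the minus strand of chromosome 9 in that annotation. Prss8 (chr7:127925716-127930104) and Hpn (chr7:31098725-31115282) lie on the minus strand of chromosome 7, and Tmprss2 (chr16:97564682-97611195) on that of chromosome 16.

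Spink8 is shown because it is the most variable of the set. Its transcript ENSMUST00000198988.4 (GENCODE vM21, chr9:109816544-109826633, plus strand) has a coding sequence of 105 codons with 6 cysteine codons, and a Kazal domain is a small fold held by disulphide bridges between cysteines. The stretch of 177 bases from codon 41 to codon 99 holds all 6, in capitals.
Spink8: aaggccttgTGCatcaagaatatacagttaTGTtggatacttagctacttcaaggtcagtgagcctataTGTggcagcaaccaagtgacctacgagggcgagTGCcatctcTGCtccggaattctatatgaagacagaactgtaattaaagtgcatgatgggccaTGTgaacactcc

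Of the 9 genes, 7 were expressed well above 1 TPM in all 22 libraries. Spint2 was the most abundant, at 1103 to 1482 TPM, and ranked above 99.9% of all gene entries by mean TPM. Tmprss2 (141 to 654 TPM), St14 (104 to 463 TPM) and Spint1 (199 to 307 TPM) followed, and Prss8 ran from 79.9 to 156 TPM. Tmprss4 (17.1 to 294 TPM) and Spink8 (9.30 to 200 TPM) spanned the widest ranges as a fold. Hpn, which encodes the liver-rich protease hepsin, reached at most 0.93 TPM and was listed at 0 in 8 libraries. Serpine2 reached at most 0.97 TPM and was listed at 0 in 9 libraries. Both fell below the minimum mean of 1 TPM set for testing, so 6 of the 8 genes other than Spink8 were tested.

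**Figure D1:**
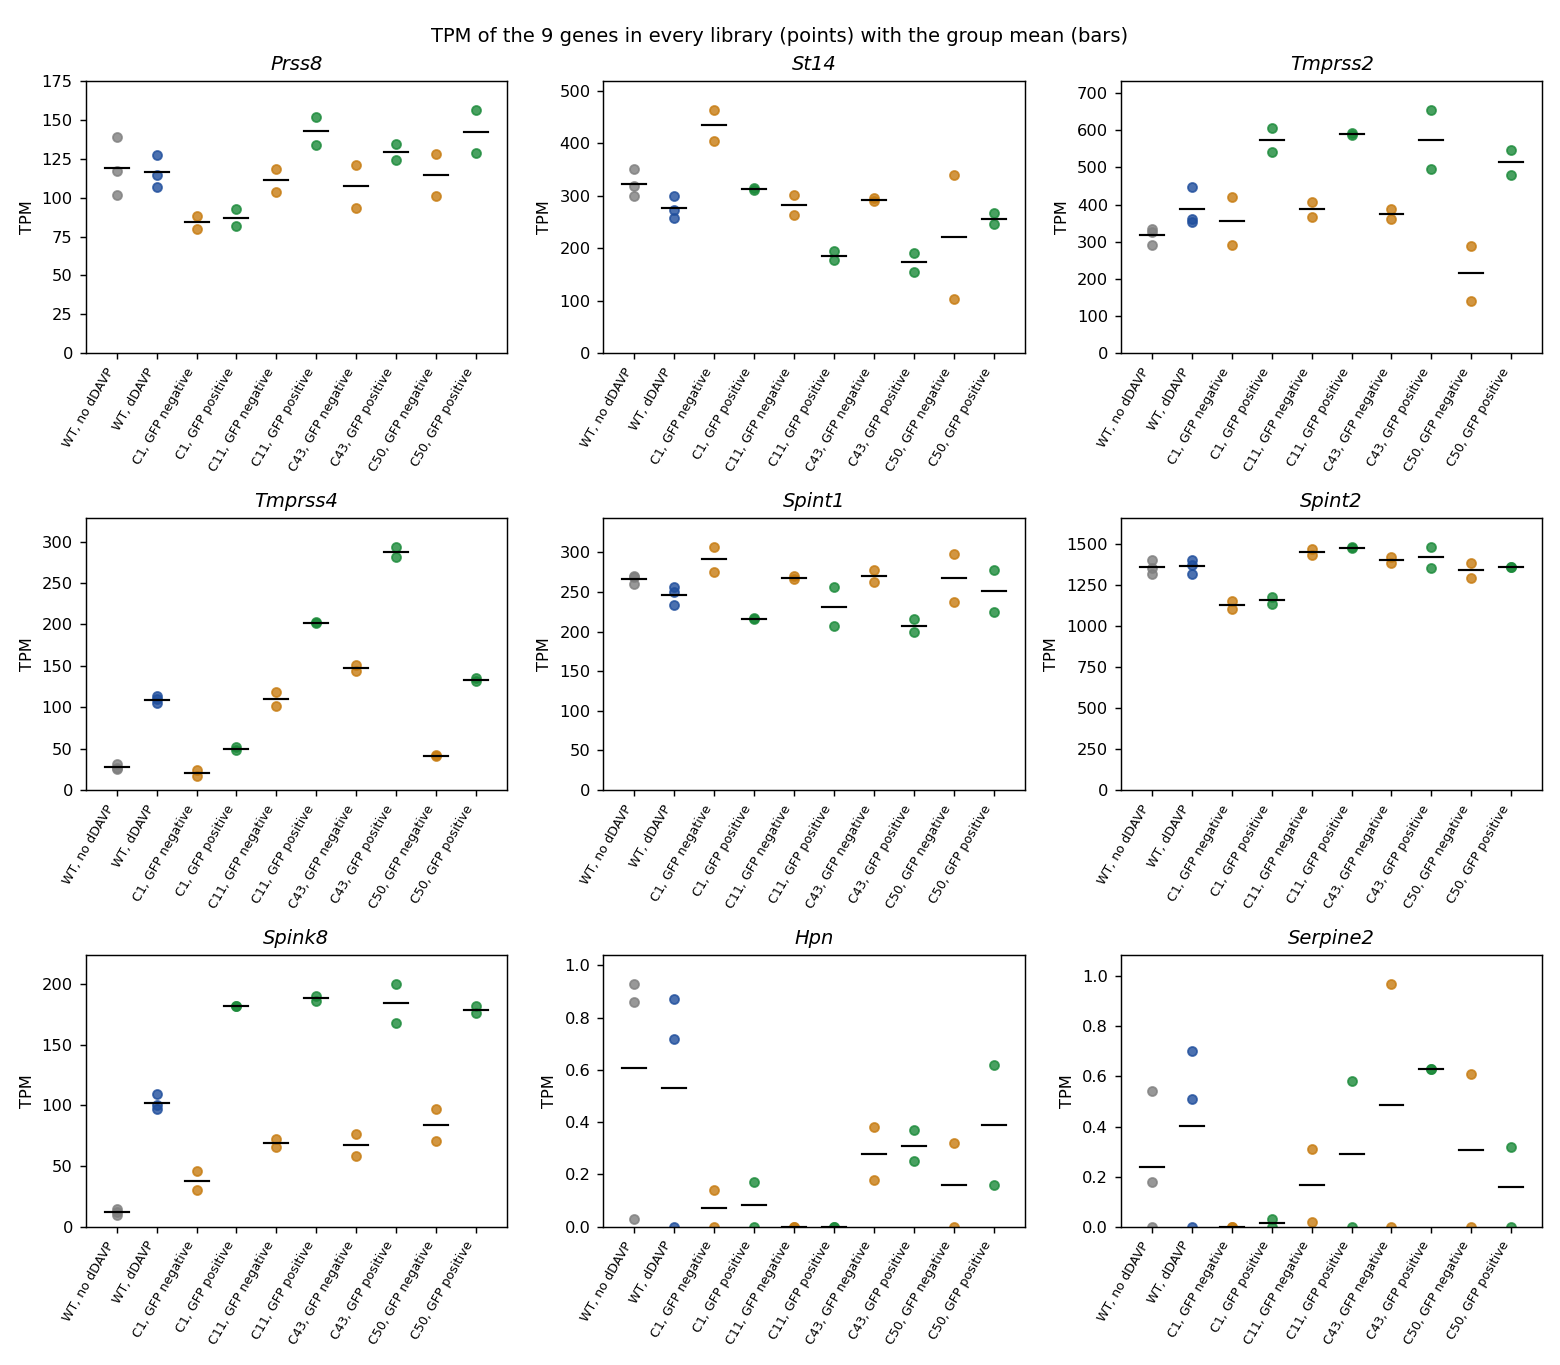
TPM (vertical axis, linear, from 0) of each of the 9 genes in every library (points) by group, with the group mean as a bar. Tmprss4 and Spink8 differ by over 10-fold between their highest and lowest group means, Spint2 stays between 1103 and 1482 TPM, and Hpn and Serpine2 stay under 1 TPM.

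Tmprss4 had the largest change with dDAVP of the tested proteases in WT cells, and the only one called outside the alternative settings given below. Without dDAVP its level was 26.4, 30.7 and 25.0 TPM, and with dDAVP it was 105, 113 and 109 TPM. Every dDAVP library was above every untreated one. The mean rose 3.99-fold, from 27.4 ± 2.99 to 109 ± 4.11 TPM (SD, n = 3 each). On the log2(TPM + 1) scale, which is used for all changes and understates those of low genes, the rise was 1.96 (standard error 0.0951, limma adjusted p = 9.52e-05). In bulk RNA, fewer cells that express a gene and less RNA per cell cannot be told apart.

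Within the reporter clones, all given dDAVP, Tmprss4 was higher in the GFP-positive fraction of each. C1 had 17.1 and 23.9 TPM in GFP-negative and 48.5 and 51.3 TPM in GFP-positive libraries. C11 had 102 and 118 TPM against 203 and 202 TPM. C43 had 143 and 151 TPM against 282 and 294 TPM, and C50 had 40.6 and 41.9 TPM against 135 and 131 TPM. The fractions did not overlap within any clone, but between clones they did: the C1 GFP-positive libraries lay below all GFP-negative libraries of C11 and C43. With clone as a covariate the log2 difference was 1.19 (standard error 0.104, limma adjusted p = 1.01e-06), and it was positive in 8 of 8 pairs of same-numbered libraries.

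The difference in Tmprss4 between fractions was called in each clone by limma, at 0.88 in C11 (adjusted p = 0.00306), 0.96 in C43 (adjusted p = 0.000848), 1.26 in C1 (adjusted p = 0.000256) and 1.67 in C50 (adjusted p = 1.23e-05). The test of whether these differences themselves differed between clones did not pass with all libraries (limma interaction adjusted p = 0.200), but did without C50 GFP-negative replicate 2 (0.0334). The clones did differ in their Tmprss4 level whatever the fraction (limma F-test adjusted p = 4.07e-08). The order of the 10 group means ran from C43 GFP-positive (288 TPM) through C11 GFP-positive (202 TPM), C43 GFP-negative (147 TPM), C50 GFP-positive (133 TPM), C11 GFP-negative (110 TPM), WT with dDAVP (109 TPM), C1 GFP-positive (49.9 TPM), C50 GFP-negative (41.2 TPM) and WT without dDAVP (27.4 TPM) to C1 GFP-negative (20.5 TPM). Only C11 GFP-negative and WT with dDAVP overlapped among neighbours in this order. Across the 22 libraries Tmprss4 followed Aqp2 with a Pearson r of 0.80 of log2(TPM + 1), a description over libraries that share dDAVP, clones and fractions.

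Tmprss2, a protease of the same family expressed in many epithelia, was higher in GFP-positive cells. Its GFP-negative libraries ran from 141 to 421 TPM with a median of 364 TPM, and its GFP-positive libraries from 481 to 654 TPM with a median of 566 TPM. The ranges over all 4 clones did not overlap, as for 5.98% of all tested genes. The log2 difference was 0.82 (standard error 0.147, limma adjusted p = 0.000572), positive in 8 of 8 pairs. Clone C50 gave 1.34, the only value within a clone to pass with all libraries and TPM as deposited (limma adjusted p = 0.00480), while C1 gave 0.71, C11 0.61 and C43 0.60 (limma adjusted p = 0.167, 0.239 and 0.168). Under median-ratio scaling all 4 clones passed, C1 at 0.79, C11 at 0.76, C43 at 0.79 and C50 at 1.24 (limma adjusted p = 0.0314, 0.0386, 0.0186 and 0.000932). The C50 value included GFP-negative replicate 1, at 141 TPM against 288 TPM in replicate 2. Without it the pooled difference was 0.68 (limma adjusted p = 1.59e-05), C50 gave 0.83, and all 4 clones passed (limma adjusted p = 0.0166, 0.0314, 0.0218 and 0.0157). No difference between clones in the size of the Tmprss2 change was called with all libraries (limma interaction adjusted p = 0.556) or without that library (0.927), but one was without replicate 2 instead (0.0113), where C50 gave 1.86 and all 4 clones passed.

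In WT cells Tmprss2 was 326, 335 and 291 TPM without dDAVP and 352, 447 and 363 TPM with it. These values did not overlap, as in 4 of the 6 tested genes and 35.8% of all tested genes, and the log2 change of 0.28 did not pass (limma adjusted p = 0.129). The 95% interval of that change ran from 0.03 to 0.53. Under median-ratio scaling of the libraries it was 0.45 and passed (limma adjusted p = 0.0443). That scaling shifts the median change of all tested genes by 0.16, from -0.16 to near 0, and the WT changes of Prss8 and Spint1 then turned from slightly below to slightly above 0 without passing.

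St14 stood lower in GFP-positive cells of 3 clones. C1 had 405 and 463 TPM in GFP-negative and 312 and 315 TPM in GFP-positive libraries. C11 had 262 and 301 TPM against 178 and 194 TPM, and C43 had 296 and 289 TPM against 191 and 155 TPM. In these 3 clones both GFP-positive libraries were below both GFP-negative ones. In C50 the GFP-negative libraries had 104 and 340 TPM, with the GFP-positive ones, at 267 and 247 TPM, between them. With all libraries the pooled log2 difference was -0.34 with a standard error of 0.209 and did not pass (limma adjusted p = 0.226). Without C50 GFP-negative replicate 1 it was -0.57 and passed (limma adjusted p = 8.79e-06), as did the values within C1, C11 and C43 of -0.47, -0.59 and -0.76 (limma adjusted p = 0.0163, 0.00450 and 0.000617), while C50 gave -0.41 (adjusted p = 0.0515). Without replicate 2 instead, which leaves replicate 1 as the only C50 GFP-negative library, the pooled difference was -0.26 and did not pass (limma adjusted p = 0.385). C50 then gave 1.30 and passed (limma adjusted p = 3.30e-05), and the values within C1, C11 and C43 passed as well, so those 3 calls come with either C50 GFP-negative library left out. With all libraries none of the 4 passed (lowest limma adjusted p = 0.211).

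The St14 difference was also taken by the number of genes detected. Within the libraries with more genes detected it was -0.59 (limma adjusted p = 0.00487). Within those with fewer, which include C50 GFP-negative replicate 1, it was -0.05 (limma adjusted p = 0.955). In that second set St14 was 405 and 463 TPM against 312 TPM with GFP in C1, and 289 against 155 TPM in C43. In C50 it was 104 against 267 TPM, and C11 had no GFP-negative library there. In WT cells St14 was 352, 318 and 299 TPM without and 258, 299 and 274 TPM with dDAVP, which did not overlap. The log2 change of -0.22 did not pass (limma adjusted p = 0.139), and it was -0.05 under median-ratio scaling. With the number of genes above 0 as a covariate it was -0.26 and passed (limma adjusted p = 0.0391).

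Prss8, the best known activator of the sodium channel in this set, differed little. It was 117, 139 and 102 TPM in WT cells without dDAVP and 107, 127 and 115 TPM with it, with a log2 change of -0.03 and a 95% interval of -0.32 to 0.26 (limma adjusted p = 0.890). GFP-negative libraries ran from 79.9 to 128 TPM with a median of 103 TPM, and GFP-positive ones from 81.5 to 156 TPM with a median of 131 TPM. The ranges overlapped, and the GFP-positive library was the higher in 8 of 8 pairs of same-numbered libraries. That count depends on the numbering, since the fractions overlapped in C1, at 79.9 and 88.4 TPM against 81.5 and 92.4 TPM. The log2 difference of 0.25, with a standard error of 0.0815, passed narrowly (limma adjusted p = 0.0265) and was lost without clone C11 (adjusted p = 0.147), without clone C43 (adjusted p = 0.0887) and without any of 5 single libraries: C11 GFP-negative replicate 1, C11 GFP-positive replicate 1, C43 GFP-negative replicate 2, C43 GFP-positive replicate 1 and C50 GFP-positive replicate 2 (highest adjusted p = 0.0622). It also did not pass with clone means as replicates (limma adjusted p = 0.104) or with all genes above 0 tested (limma adjusted p = 0.0768). The clones differed in Prss8 (limma F-test adjusted p = 0.00468), and C1 held the lowest group means, 84.1 ± 5.96 and 87.0 ± 7.76 TPM (SD, n = 2 each).

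Among the inhibitors, Spint2 was the steadiest gene of the set. Its mean was 1359 ± 42.6 TPM without and 1364 ± 40.7 TPM with dDAVP in WT cells (SD, n = 3 each). The log2 change was 0.00 with a 95% interval of -0.13 to 0.14 (limma adjusted p = 0.962). Between GFP fractions the log2 difference was 0.03 with an interval of -0.05 to 0.10 (limma adjusted p = 0.645). The clones did differ (limma F-test adjusted p = 0.000504), with C1 at 1127 and 1156 TPM in its fractions and the other clones at 1340 to 1478 TPM. That difference between clones did not pass under median-ratio scaling (limma F-test adjusted p = 0.102).

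Spint1 was lower in GFP-positive cells. GFP-negative libraries ran from 238 to 307 TPM with a median of 273 TPM, and GFP-positive ones from 199 to 277 TPM with a median of 217 TPM. The ranges overlapped through C50, at 238 and 298 TPM in GFP-negative and 277 and 225 TPM in GFP-positive libraries. Of 8 pairs of same-numbered libraries, Spint1 was higher with GFP only in C50 replicate 1. That pair holds the GFP-negative library that stood apart, and the exception depends on the numbering. The pooled log2 difference of Spint1 was -0.28 (standard error 0.0740, limma adjusted p = 0.00828). Leaving out any 1 library it stayed between -0.33 and -0.25 and passed. It was lost without clone C1 (adjusted p = 0.0800), without clone C43 (adjusted p = 0.0764) and with clone means as replicates (adjusted p = 0.0748). In WT cells Spint1 was 269, 260 and 270 TPM without and 250, 256 and 233 TPM with dDAVP, and the log2 change of -0.11 did not pass (limma adjusted p = 0.285).

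**Figure D2:**
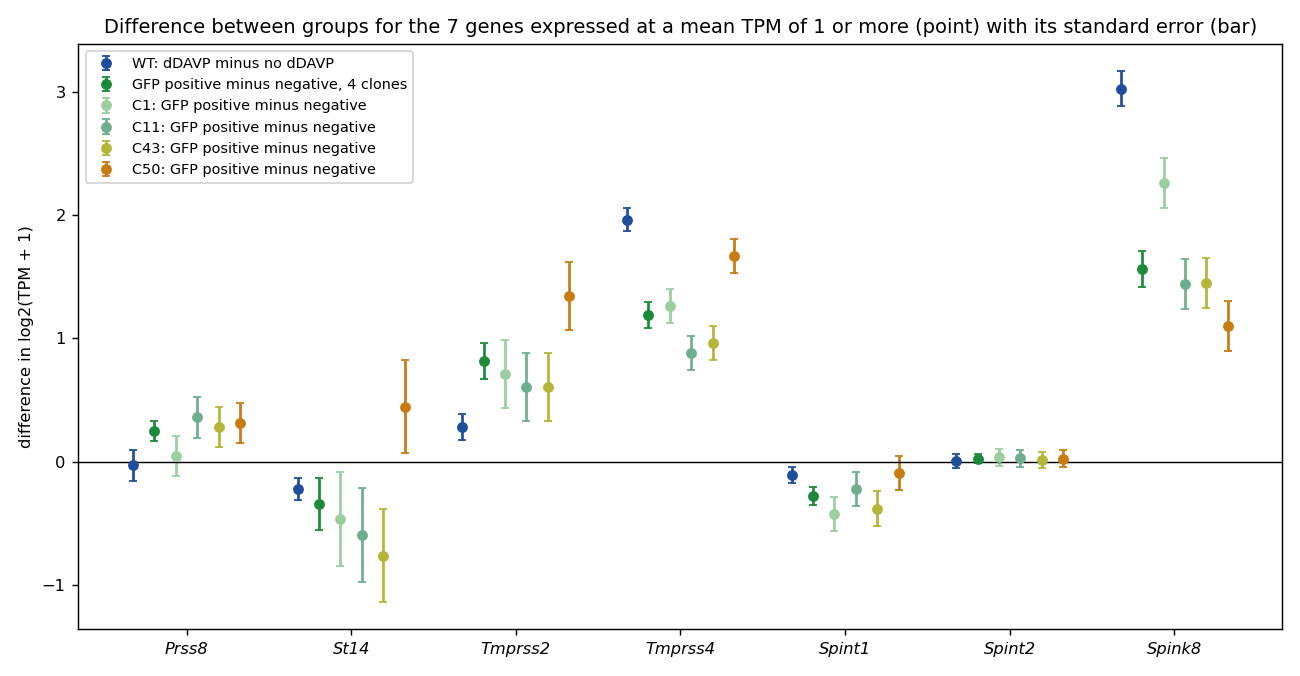
Difference in log2(TPM + 1) (vertical axis) for the 7 genes above the minimum level, for dDAVP in WT cells and for GFP-positive against GFP-negative cells pooled and within each clone, with bars for the standard error. Tmprss4 and Spink8 lie above 0 in every comparison, Spint2 lies near 0 in all, and St14 lies below 0 except in C50.

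The GFP differences were also taken apart by the number of genes detected, which splits the clone libraries as described above. With more genes detected, Tmprss4 differed by 1.13 (limma adjusted p = 0.00463), Tmprss2 by 0.74 (adjusted p = 0.00332), Prss8 by 0.31 (adjusted p = 0.0447) and Spint1 by -0.39 (adjusted p = 0.00657). With fewer, a set that holds C50 GFP-negative replicate 1, Tmprss4 differed by 1.29 and passed (limma adjusted p = 0.0371), while Tmprss2 at 0.92 (adjusted p = 0.139), Prss8 at 0.21 (adjusted p = 0.471) and Spint1 at -0.21 (adjusted p = 0.495) did not. The sets also differ in clones, since C1 had no GFP-negative library with more genes detected and C11 none with fewer. Of all genes, 4042 were called with more genes detected and 250 with fewer, against 4626 over all clone libraries. For WT cells the libraries with more genes detected gave 1.93 for Tmprss4 (limma adjusted p = 0.00799).

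Read against all genes, dDAVP in WT cells called 1 of the 6 tested genes, Tmprss4, where 8.88% of all tested genes were called (2.37% higher and 6.51% lower). The comparison of GFP fractions called 4 of 6, Tmprss4, Tmprss2 and Prss8 higher and Spint1 lower, where 35.3% of all tested genes were called (12.1% higher and 23.2% lower). Under median-ratio scaling 59.6% of the WT calls were higher, against 26.7% as deposited, and 50.9% of the GFP calls, against 34.2%. A single sign in all 8 pairs of same-numbered libraries, as in Tmprss4, Tmprss2 and Prss8, was found in 23.9% of all tested genes. For Prss8 it depends on the numbering. Within clones limma called Tmprss4 alone in C1, C11 and C43, where 7.22%, 7.94% and 16.3% of all tested genes were called, and Tmprss4 and Tmprss2 in C50, where 26.6% were. Differences between clones were called for 3 of 6 (Tmprss4, Spint2 and Prss8) against 28% of all tested genes. The interaction of fraction with clone passed for 0.869% of all tested genes and for none of the 6 in limma, with 1 of them, Tmprss4, at an unadjusted p under 0.05.

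Spink8, selected because it was higher with dDAVP and with GFP, had the largest log2 differences of the set in WT cells and over the pooled clones. With all libraries its difference in C50, 1.10, was below those of Tmprss4 (1.67) and Tmprss2 (1.34). Spink8 was 9.30, 14.3 and 11.8 TPM in WT cells without dDAVP, and 109, 96.7 and 101 TPM in WT cells with dDAVP. The groups were far apart, and the mean was 8.66-fold higher with dDAVP, a log2 difference of 3.03 with a standard error of 0.146. In the clones the GFP-negative libraries ran from 30.2 to 97.0 TPM with a median of 68.1 TPM, and the GFP-positive ones from 168 to 200 TPM with a median of 182 TPM. These ranges did not overlap, the GFP-positive library was higher in 8 of 8 pairs, and the pooled log2 difference was 1.56 with a standard error of 0.145.

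The GFP-positive means of the 4 clones lay close together in Spink8, and among the GFP-negative groups C1 lay below the other 3, which overlapped. GFP-positive means were 188 TPM in C11, 184 TPM in C43, 182 TPM in C1 and 179 TPM in C50. GFP-negative means were 83.7 TPM in C50, 68.9 TPM in C11, 67.0 TPM in C43 and 37.9 TPM in C1. The log2 difference was largest in C1, at 2.26, and stood at 1.45 in C43, 1.44 in C11 and 1.10 in C50 (1.33 without C50 GFP-negative replicate 1). Every GFP-negative library, all from dDAVP-treated cells, lay above the untreated WT cells, and every GFP-positive library lay above the WT cells with dDAVP. In the order of the 10 group means, the C11, C43 and C1 GFP-positive groups overlapped their neighbours, and so did WT with dDAVP and the GFP-negative groups of C50, C11 and C43. Tmprss4 means in the GFP-positive groups ranged from 49.9 to 288 TPM, against 179 to 188 TPM for Spink8, and this contrast was not tested.

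Aqp2 itself went from 69.1 ± 5.43 to 2868 ± 139 TPM with dDAVP in WT cells (SD, n = 3 each). Its GFP-positive means were 2017, 3002, 6952 and 4651 TPM in C1, C11, C43 and C50, an order that Tmprss4 shared only in part, with C11 above C50. Over the 22 libraries, which share dDAVP, clones and fractions, the Pearson r of log2(TPM + 1) with Aqp2 was 0.89 for Spink8, 0.47 for Tmprss2 and -0.56 for St14. The summed TPM of the intercalated cell markers, carried by Car2 and Atp6v1b1, also stood higher with GFP, at 323 to 617 TPM in GFP-positive against 199 to 327 TPM in GFP-negative libraries, with the other 5 markers at most at 0.68 TPM. Their part in the differences above was not tested.

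The proportions of the proteases differed between group means, a description with no test. A share also depends on the sum, whose mean was 788 TPM without and 890 TPM with dDAVP in WT cells. Tmprss4 made up 3.47% of the summed TPM of the 5 proteases in WT cells without dDAVP and 12.3% with it, while the share of St14 was 41.1% and 31.1%. From GFP-negative to GFP-positive cells the St14 share went from 48.8% to 30.6% for C1, 34.7% to 24.6% for C50, 31.8% to 14.8% for C43 and 31.7% to 16.6% for C11. In C50 the GFP-negative value averages 26.8% in replicate 1 and 42.6% in replicate 2, and the mean St14 level was not lower with GFP there (222 and 257 TPM). Tmprss2 held the largest mean share in all 4 GFP-positive groups, at 49.0% to 56.0%, and also, at 36.3% to 43.5%, in WT cells with dDAVP and in the GFP-negative groups of C11, C43 and C50. In C50 that rests on GFP-negative replicate 1, since in replicate 2 St14 led, at 42.6% against 36.1% for Tmprss2. The ratio of the 5 proteases to Spint1 plus Spint2 was 0.485 ± 0.0393 without and 0.552 ± 0.0385 with dDAVP in WT cells (SD, n = 3 each). From GFP-negative to GFP-positive cells the mean ratio went from 0.370 to 0.649 for C50, 0.518 to 0.656 for C11, 0.551 to 0.721 for C43 and 0.633 to 0.747 for C1 (n = 2 each). C50 GFP-negative replicate 1 had a ratio of 0.238, and the other C50 GFP-negative library had 0.501. The ranges overlapped, at 0.238 to 0.723 in GFP-negative libraries (0.481 to 0.723 without C50 replicate 1) and 0.617 to 0.812 in GFP-positive ones, through a C1 GFP-negative library. As a score over genes chosen with results known, the ratio has no test.

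**Figure D3:**
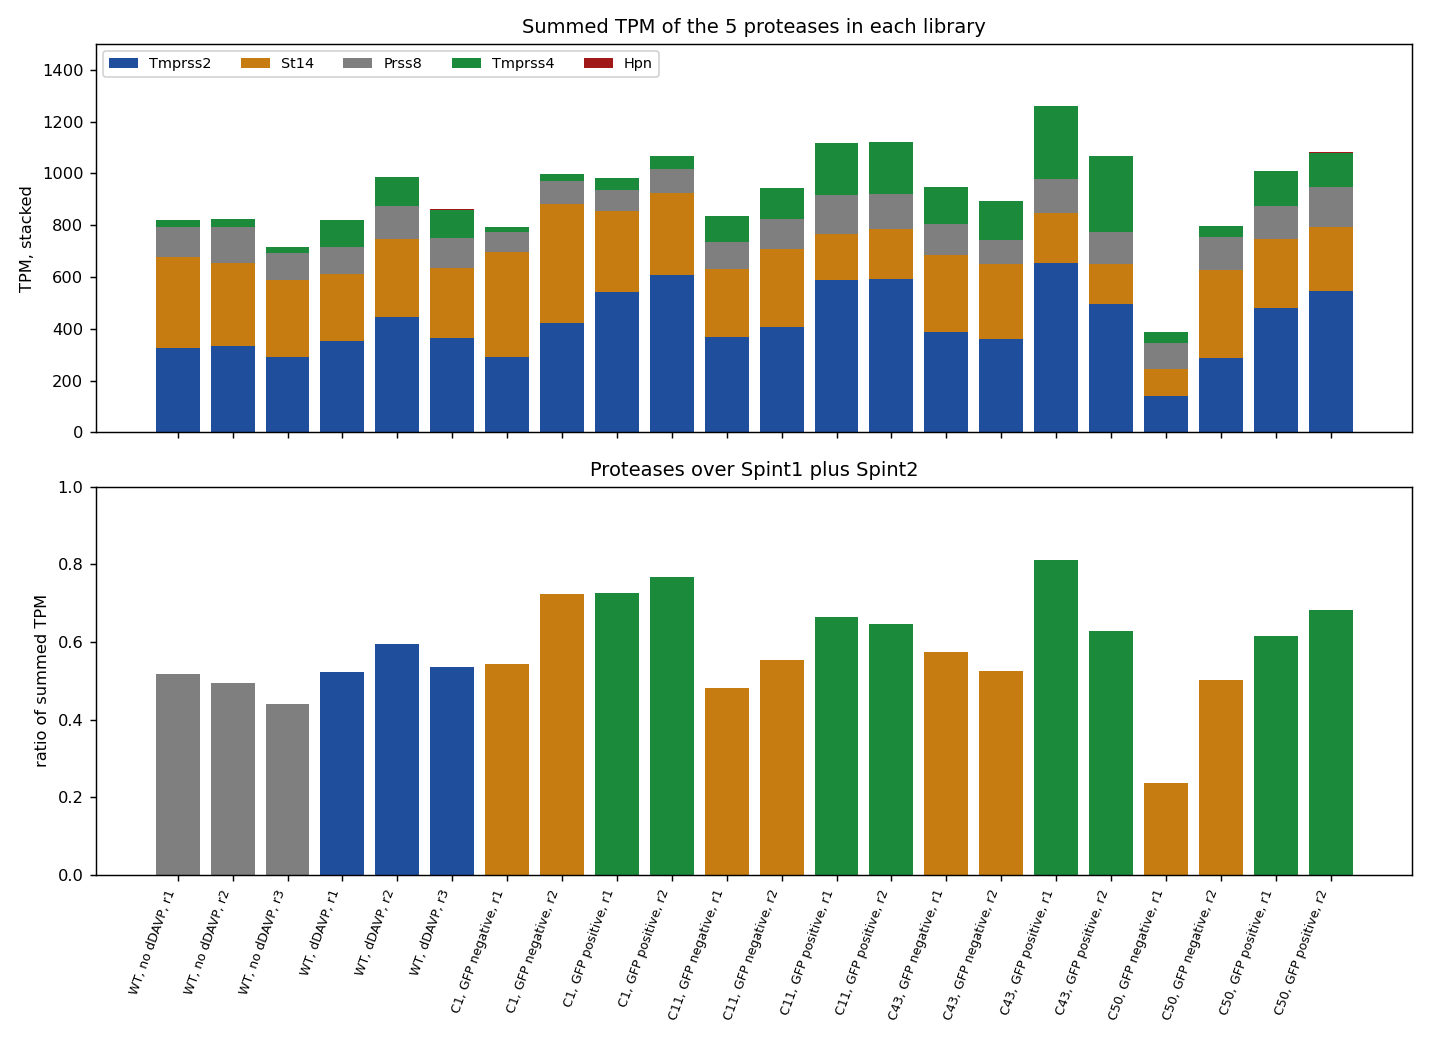
Summed TPM of the 5 proteases in each library, stacked by gene, and the ratio of that sum to Spint1 plus Spint2 (both axes linear, from 0). Within each clone the Tmprss2 and Tmprss4 layers are thicker in GFP-positive libraries, the St14 layer is thinner in C1, C11 and C43 but not against both C50 GFP-negative libraries, and C50 GFP-negative replicate 1 has the lowest sum and the lowest ratio, 0.238.

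The sodium channel and its regulators, a list of 15 genes of which 13 were tested, were mixed with dDAVP and mostly higher with GFP. In WT cells 1 rose and 2 fell, where 2.37% of all tested genes rose and 6.51% fell: Usp2, a deubiquitinase, by 0.81 (limma adjusted p = 0.00653), and the channel subunits Scnn1g by -0.75 (adjusted p = 0.0295) and Scnn1a by -0.60 (adjusted p = 0.0435). Both subunit calls were fragile: they held under 5 and 4 of 15 alternative settings. In the GFP comparison 8 of 13 rose and none fell in limma (0 lower at an unadjusted p under 0.05), with a median log2 difference of 0.71 against -0.06 over all tested genes, of which 12.1% rose and 23.2% fell. Scnn1g went from 11.6 ± 2.96 to 26.3 ± 3.77 TPM (SD, n = 8 each; log2 1.14, limma adjusted p = 8.27e-06), and Sgk1, a kinase that keeps the channel at the surface, from 361 ± 140 to 762 ± 288 TPM (log2 1.08, limma adjusted p = 2.03e-06). Scnn1b, near 0 throughout, was not tested.

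Other trypsin-like serine proteases, a list mainly of membrane-anchored ones, were nearly absent: of 22 listed, 1 reached the minimum level in the WT libraries and was not called, and 2 did in the clones. Prss22, a secreted tryptase in that list, fell from 114 ± 21.2 TPM in GFP-negative to 40.2 ± 3.82 TPM in GFP-positive cells (SD, n = 8 each; log2 -1.47, limma adjusted p = 7.76e-08). None of the 11 other Spink genes reached that level in the WT libraries and 1 did in the clones, where it was not called, so Spink8 was the only Spink gene above it in both.

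Other protease inhibitors numbered 25, of which 10 were tested in WT cells and 11 in the clones. With dDAVP 1 rose and 2 fell, against 2.37% and 6.51% of all tested genes. Wfdc2, a secreted inhibitor-like protein, went from 2932 ± 345 to 4111 ± 195 TPM (SD, n = 3 each; log2 0.49, limma adjusted p = 0.0259). Serpinh1, a collagen chaperone of the serpin family, changed by -0.56 (adjusted p = 0.0383) and App, whose longer forms carry a Kunitz domain, by -0.55 (adjusted p = 0.0157). These 3 calls held under 6, 4 and 8 of the 15 alternative settings. In the GFP comparison 4 rose and 3 fell, against 12.1% and 23.2% of all tested genes. Spint3, a Kunitz-domain gene at 0.784 ± 0.742 and 3.51 ± 3.14 TPM, rose by 1.19 (limma adjusted p = 0.000591) and Wfdc15b by 0.92 (limma adjusted p = 0.000451). Serpinh1 was among those that fell, by -1.41 (limma adjusted p = 5.16e-05).

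Among 21 secreted proteases, receptors and substrates, 11 were tested in each comparison. None was called with dDAVP by limma, where 8.88% of all tested genes were called, with 4 at an unadjusted p under 0.05. In the GFP comparison 1 rose and 5 fell, with a median log2 difference of -0.48 against -0.06 over all tested genes, of which 12.1% rose and 23.2% fell. The plasminogen activators Plat and Plau changed by -1.51 (limma adjusted p = 1.32e-05) and -1.06 (limma adjusted p = 6.04e-05), and Plaur, the receptor of the second, rose by 0.37 (limma adjusted p = 0.000120). Epcam, a surface protein that matriptase can cut, was among those that fell, at -0.70 (limma adjusted p = 1.67e-07). The WT and GFP comparisons use different libraries.

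**Figure D4:**
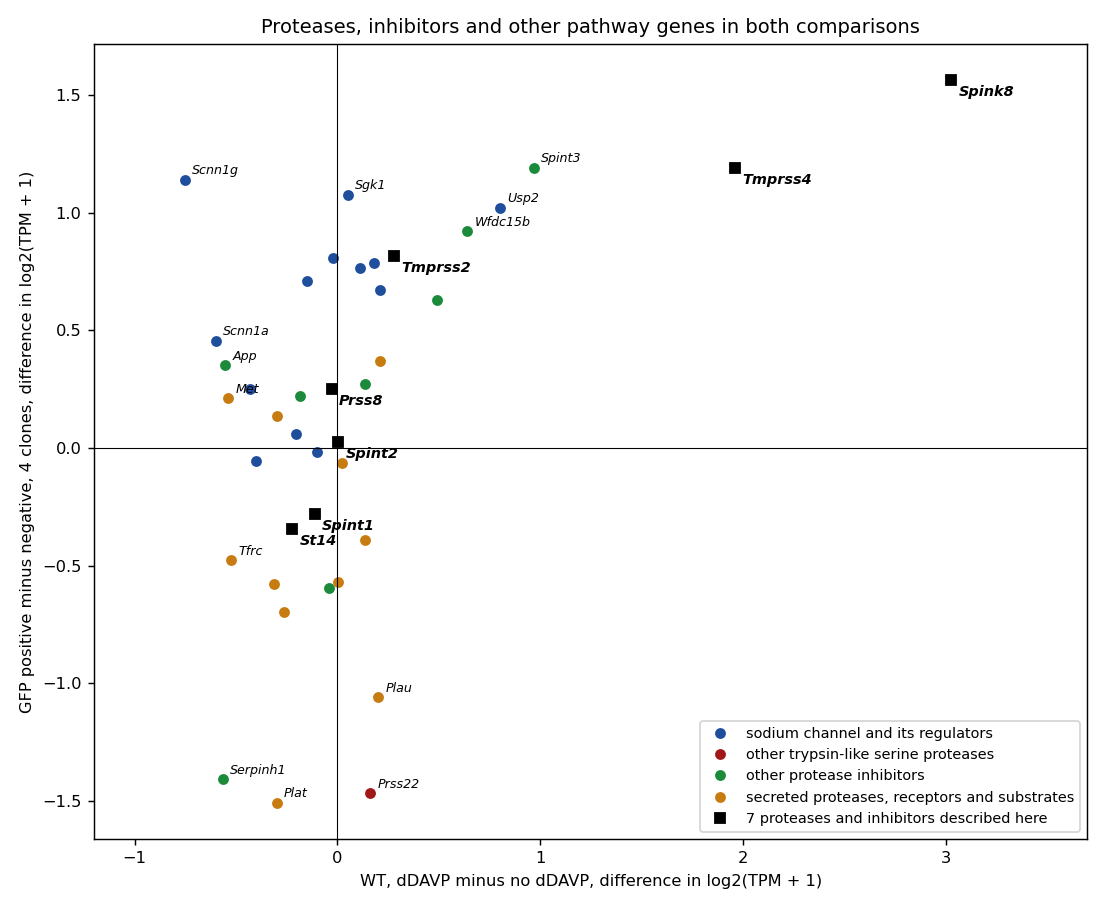
Difference in log2(TPM + 1) with dDAVP in WT cells (horizontal axis) against that between GFP-positive and GFP-negative cells (vertical axis). Shown are the 7 proteases and inhibitors and 33 of the other genes of the pathway lists tested in both comparisons. Tmprss4 (1.96 and 1.19) and Spink8 (3.03 and 1.56) lie far to the upper right, and St14 and Spint1 lie to the lower left of 0.

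The genes whose log2(TPM + 1) followed each gene most closely over the 22 libraries, among 9584 genes compared, differed from one member of the set to the next. Spink8 was followed by Selenbp1 (Pearson r = 0.96), the keratin gene Krt23 (0.95) and Bcat1 (0.94), an enzyme of branched-chain amino acid breakdown. Among the genes closest to Tmprss4 were Gdpd1 (0.95) and Cndp2 (0.95). Tmprss2 was followed by Cyp39a1 (0.96), Slc45a4 (0.95) and Pygb (0.94), the brain-type glycogen phosphorylase. St14 was followed by Carm1 (0.96), an arginine methyltransferase, the TGF-beta receptor gene Tgfbr2 (0.94) and Nr1d2 (0.94). The closest gene was Prorp for Prss8 (0.87), Prr14 for Spint1 (0.87) and Ascc1 for Spint2 (0.93). These are descriptions over libraries that share treatment, clone and fraction. By Spearman rank correlation 2 of the 3 leading genes were the same for Spink8, 1 for Tmprss4, Tmprss2 and Spint2, and none for St14, Prss8 and Spint1.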

How the data were processed

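Per the labels' protocols, SMART-Seq HT cDNA was made from total RNA and Nextera XT libraries were sequenced paired-end. The submitters' processing notes name STAR and RSEM. The genome build and annotation are not given in the sources used here. The authors deposited TPM per gene and library, with group means, a column of the highest value and ratios of group means. The deposited means, highest values and ratio columns were not used. The table holds 55415 lines, and the 980 lines that share 79 symbols were summed. Depth cannot be read from TPM and is unknown, so precision rests on replicate spread. No 2 replicates held identical values.

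Linear models on log2(TPM + 1) were fitted with limma 3.58.1 in R 4.3.3, with a mean-variance trend, for genes whose TPM averaged at least 1 in the compared libraries (13494 in WT, 13113 in the clones). Tests were two-sided, adjusted by Benjamini-Hochberg over all tested genes and called at an adjusted p under 0.05. WT groups were compared over 6 libraries, GFP fractions over 16 with clone as a covariate. Values within clones and the interaction came from a mean per clone and fraction with a shared spread. The fits were tested on simulated data.

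The genes described, the pathway lists and the markers were chosen with earlier results of these data known. Pathway genes named were up to 2 called genes with the largest rise and 2 with the largest fall per list. Epcam was named after its values were seen. For likeness, the 3 genes with the highest Pearson r were named, at a mean TPM of at least 5, leaving out provisional symbols. Some genes that these rules name are not reported here. Alternatives changed the pseudocount, the minimum level, the scaling, the trend, the covariates, the replicate block and the libraries used.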

Additional observations from a re-analysis of the deposited data

How the results depend on the processing

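Of 1288 recomputed values for single genes, 1233 stayed on the same side of the threshold or within the replicate spread, 16 lost the call, 35 gained it and 4 moved beyond the spread. Of the 966 that are log2 changes, 24 had the other sign, in 11 results (Prss8, Spint1 and Spint2 near 0, and St14 in C50), and 0 of these were called as reported or under the alternative. The rise of Tmprss4 passed under all alternatives in WT cells (adjusted p from 2.42e-05 to 0.00799) and in the GFP comparison (1.06e-07 to 0.0371). Tmprss2 in the GFP comparison failed only within libraries with fewer genes detected (adjusted p = 0.139). The cause of the changes below was not tested.

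In WT cells, where 1 of the tested proteases and inhibitors was called, median-ratio scaling and the number of genes detected as a covariate each called 2. Pathway genes called there, 6 as reported, were 1 with all genes above 0, 2 with median-ratio scaling, 3 with quantile normalization, 2 with no trend, 12 with the covariate, 0 within libraries with more genes detected (11 at an unadjusted p under 0.05) and 1 to 6 leaving out 1 library. In the GFP comparison 4 became 2 without clone C43, 2 with clone means as replicates and 1 within libraries with fewer genes detected, where pathway genes called went from 22 to 6. In single clones, median-ratio scaling called 2 in C1, 2 in C11 and 3 in C43 (1 each as reported), and the covariate called 2 in C11 and 3 in C50 (2 as reported), Prss8 being the gene added in both (log2 0.41 and 0.33, limma adjusted p = 0.0195 and 0.0188). Leaving out 1 library gave 1 to 4 in C1, 1 to 3 in C11, 1 to 4 in C43, 2 to 4 in C50 and 0 to 3 for the interaction. The highest of these came from leaving out C50 GFP-negative replicate 1 or 2, after which the other library is assumed to vary like the other groups. The 3 interaction calls (St14, Tmprss2 and Tmprss4) came only without replicate 2, when the remaining library was the one that stood apart.

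All genes called ranged from 101 to 2694 in WT cells (1198 as reported), 250 to 6043 in the GFP comparison (4626), 377 to 2094 in C1 (947), 318 to 2331 in C11 (1041), 858 to 3891 in C43 (2134), 1793 to 6820 in C50 (3486), 2653 to 5889 between clones (3669) and 42 to 5038 for the interaction (114). Median-ratio scaling moved the share of calls that were higher from 32.0% to 46.1% in C1, 28.1% to 48.7% in C11 and 26.3% to 50.1% in C43. Within libraries with fewer genes detected WT cells had 1 library per group, so no test was made.

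Same-numbered libraries did not deviate together (WT correlations of -0.208, -0.109 and -0.0254, clone correlations of 0.0151 to 0.203), and 0 of 6 WT libraries correlated best with their own number. With the replicate number as a block, 1 protease was called in WT cells and 4 genes in the GFP comparison, as without it, and pathway genes called were 1 in WT cells and 23 in the GFP comparison. The block called 122 genes in WT cells.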
